A study of Mus musculus with 6 samples.

Results

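The SP1 sites of 8 genes of neural progenitors are described here by their chromatin accessibility: the lipid-binding protein gene Fabp7, the homeobox genes Meis1 and Prox1, the POU-domain gene Pou3f3, the nuclear receptor gene Nr2e1, the basic helix-loop-helix genes Hes6 and Hey2, and the zinc-finger gene Zbtb18. Sites belonged to a gene when their midpoint lay inside it or within 50 kb of either end, with 300 kb allowed at Meis1. This gave 53 of the 9001 listed sites, and each of the 8 genes had at least 1. The genes were chosen by accessibility values of this same comparison already seen at some of them, so the values at their sites are a description and no test of the members was made.

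The data are ATAC-seq profiles of neural progenitor cells (NPC, 3 libraries) and of embryonic stem cells (ESC, 3 libraries), all labelled R1, a mouse embryonic stem cell line. The labels give no treatment, no further genotype and no protocol for deriving the NPC, and leave unsaid whether libraries of 1 group are separate cultures. ATAC-seq inserts adapters into open chromatin with the Tn5 transposase, so the count over a site measures accessibility. The table used here is a comparison, made by the authors, of NPC against ESC at high-confidence sites of SP1, a zinc-finger factor that binds GC-rich DNA, on chromosome 1, chromosome 10 and the start of chromosome 11. Values per library and the depth of each library were not analysed here, so no SD over libraries stands beside a value.

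Sites span 500 bp, and the mean signal of a site is its normalized count averaged over libraries. Its log2 fold change is NPC over ESC by the name of the table, so a positive value means more accessible in NPC. Calls were made at a deposited adjusted p-value under 0.05. Across the 9001 sites the median log2 fold change was -0.29 and the median signal 5.78, so single sites rest on few reads. Sox1, Nes and Pax6, which define neural progenitors, lie outside the listed regions and were not analysed here. Around 7 covered genes of the pluripotent state, 29 of 59 sites within 50 kb fell in NPC (49.2%, against 32.6% of all listed sites) and 12 rose (20.3%, against 22.8%). The genes differed among themselves. At Tfcp2l1, a naive pluripotency factor, 8 of 8 fell. The signalling ligand genes Nodal and Lefty2 had 4 rises and 3 falls, and 4 rises and 4 falls. Every rise at Nodal and Lefty2 lay nearer to another protein-coding gene. Sites nearest to Nodal itself fell, with -5.12 ± 1.16 and -3.86 ± 1.06 by the authors' deposited table. So did the one nearest to Lefty2, with -3.29 ± 0.93 by the authors' deposited table.

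Neural progenitors are dividing cells of the developing nervous system that renew themselves or give rise to neurons and glia. Notch signalling holds them in the progenitor state through repressors of the HES and HEY families, while homeobox, POU and nuclear receptor factors set their regional identity and self-renewal. Fabp7 encodes the brain fatty acid-binding protein of radial glia, the progenitors that line the embryonic ventricles.

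A listed SP1 site overlapped the promoter window, from 250 bases before to 50 bases after the RefSeq start, of 5 of the 8 genes, and these promoters are shown so that the sequence can be read beside the accessibility. All 8 genes were found in the RefSeq promoter table. The lines give the 250 bases before the transcription start from RefSeq (GRCm38.p6, which is mm10), 5′ to 3′ along the gene, with GGGCGG and its reverse complement CCGCCC, the core of the GC box that SP1 binds, in capitals.
Fabp7, chr10:57784673-57784922, plus strand: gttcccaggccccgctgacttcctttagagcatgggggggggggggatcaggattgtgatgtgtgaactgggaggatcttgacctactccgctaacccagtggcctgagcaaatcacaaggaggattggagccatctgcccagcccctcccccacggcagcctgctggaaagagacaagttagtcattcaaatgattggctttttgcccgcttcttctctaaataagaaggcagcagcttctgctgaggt
Nr2e1, chr10:42583591-42583840, minus strand: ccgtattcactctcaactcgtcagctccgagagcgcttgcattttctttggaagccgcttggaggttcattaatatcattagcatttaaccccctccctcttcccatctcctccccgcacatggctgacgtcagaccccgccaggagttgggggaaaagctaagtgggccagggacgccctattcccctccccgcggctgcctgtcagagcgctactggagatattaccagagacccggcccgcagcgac
Hes6, chr1:91414039-91414288, minus strand: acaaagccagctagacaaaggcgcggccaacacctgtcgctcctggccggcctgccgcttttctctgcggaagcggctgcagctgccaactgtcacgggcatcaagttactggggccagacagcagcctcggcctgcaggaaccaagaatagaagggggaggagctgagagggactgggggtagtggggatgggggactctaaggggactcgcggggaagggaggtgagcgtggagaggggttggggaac
Prox1, chr1:190170828-190171077, minus strand: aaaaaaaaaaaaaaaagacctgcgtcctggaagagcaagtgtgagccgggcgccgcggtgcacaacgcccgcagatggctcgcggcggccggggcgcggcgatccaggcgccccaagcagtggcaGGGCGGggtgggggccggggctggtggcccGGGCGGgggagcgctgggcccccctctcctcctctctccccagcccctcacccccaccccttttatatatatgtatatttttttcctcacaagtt
Zbtb18, chr1:177442101-177442350, plus strand: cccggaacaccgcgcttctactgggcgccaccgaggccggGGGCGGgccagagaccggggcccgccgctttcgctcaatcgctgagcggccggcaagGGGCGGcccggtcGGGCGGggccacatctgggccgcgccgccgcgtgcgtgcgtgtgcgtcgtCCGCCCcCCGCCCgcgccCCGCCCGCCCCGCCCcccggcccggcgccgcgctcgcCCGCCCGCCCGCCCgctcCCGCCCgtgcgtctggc

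Both strands were searched and overlapping matches were counted. The Zbtb18 promoter held 12 GC boxes, in a stretch of 84.0% G and C with 47 CpG dinucleotides. That of Prox1 held 2, with 64.8% G and C and 20 CpG. No match lay in the 250 bases of Fabp7 (54.8% G and C, 4 CpG), Nr2e1 (58.0%, 15 CpG) or Hes6 (63.6%, 12 CpG), although each of these stretches lay whole within a listed site. The remaining bases of these 500 bp sites were not searched. At the other printed starts, the sites covered 165 of the 250 bases at Zbtb18 and 159 at Prox1. Of 21230 such stretches before the starts of mouse protein-coding genes, 42.6% held the GC box and 11.6% held 3 or more. Within the listed regions the share was 61.4% of the 1066 promoter windows that a listed site overlapped and 29.3% of the 1290 that none did. GGGTGG, the related GT box (30.2% of all stretches), was found on either strand 2 times before Prox1 and not before the other 4 starts printed. The starts of Meis1, Pou3f3 and Hey2 had no listed site over the promoter window. Their nearest site midpoints lay 8.52, 8.15 and 31.7 kb from the start, and their 250 bases held 0, 1 and 3 GC boxes, in that order of genes.

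Most of the called sites around these genes were more accessible in NPC. Of the 53 sites 29 rose (54.7%), 6 fell (11.3%) and 18 were not called, where the background over all listed sites was 22.8% rising and 32.6% falling. Because the genes were picked with such values known, nothing is read from the excess over the background. In bulk libraries, a change in the number of cells with an open site and a change in its openness per cell cannot be told apart. The median log2 fold change of the 53 sites was 1.53, with a range of -3.45 to 7.14, against -0.29 for all listed sites. Rises were 82.9% of the calls by the deposited values and 87.5% with p-values recomputed from the fold changes and standard errors. With fold changes also centred on that overall median, 29 sites rose and 2 fell, or 93.5% rises. Without Meis1, 18 of 37 sites rose and 4 fell, and within 10 kb of the genes 12 of 22 rose and 3 fell. Another protein-coding gene was nearer than the member at 10 of the 53 sites, of which 4 rose and 1 fell. At Fabp7, Meis1, Pou3f3, Prox1 and Zbtb18 the median was positive and rises outnumbered falls. Hes6 and Hey2 had 1 rise and 1 fall each, and Nr2e1 had a single fall and no rise.

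**Figure D1:**
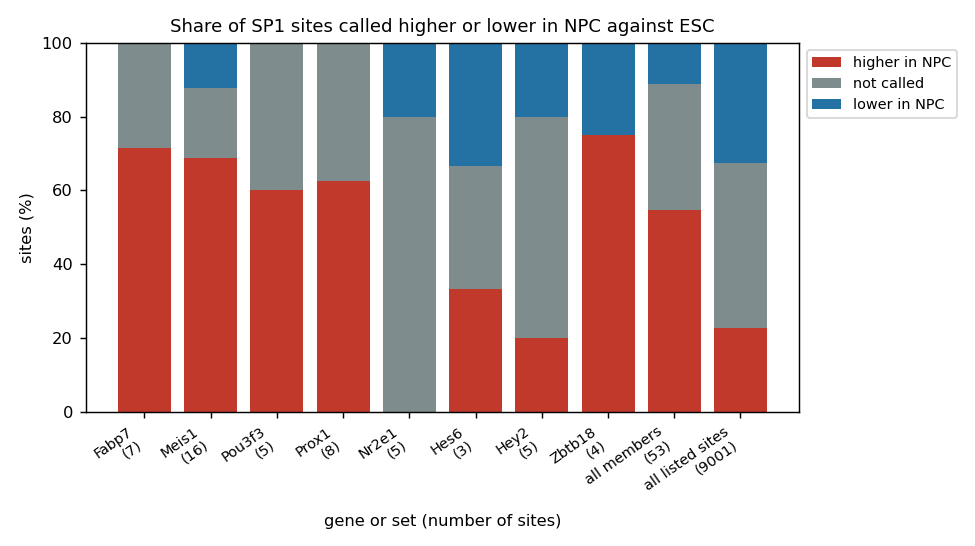
Share of SP1 sites at each gene that were called higher in NPC (red), not called (grey) or called lower in NPC (blue) at an adjusted p below 0.05 by the authors' deposited table, with the number of sites in brackets, beside the 53 sites together and all 9001 listed sites. Rises take 71.4% of the Fabp7 sites and 0 of the 5 Nr2e1 sites.

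**Figure D2:**
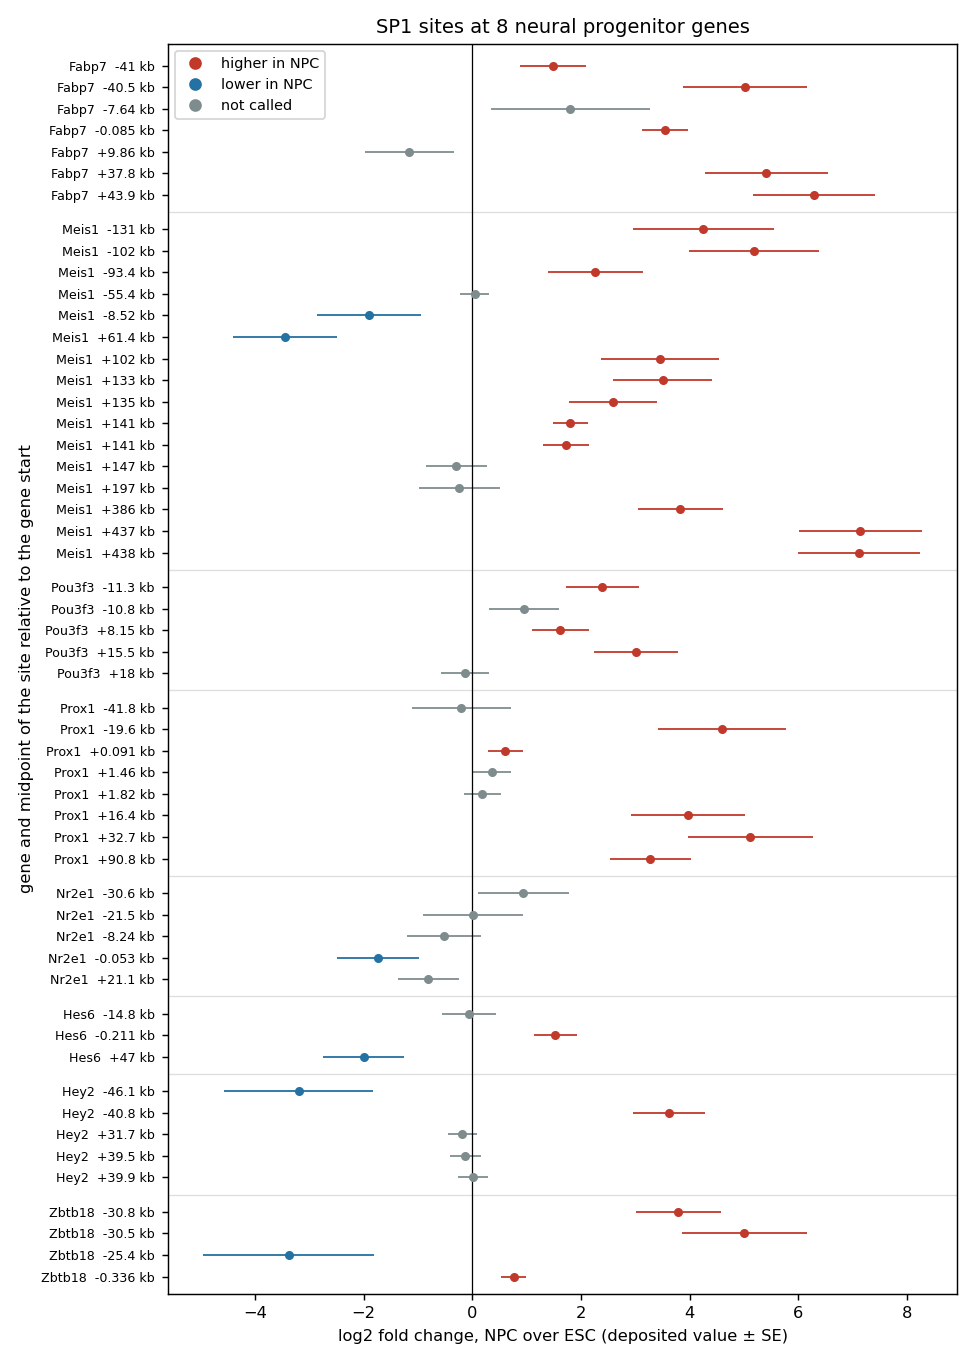
Log2 fold change of NPC over ESC at each of the 53 sites, with the standard error as a bar, by the authors' deposited table. Rows are grouped by gene and ordered by the midpoint's distance from the gene start, negative upstream. The highest points are the pair of Meis1 sites at 7.13 and 7.14, and the lowest is a site inside Meis1 at -3.45.

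At Fabp7, 5 of 7 sites were more accessible in NPC and none was called lower. The gene spans chr10:57784923-57788450 on mm10. The site over its promoter, chr10:57784588-57785088, with a midpoint 85 bp before the start, had a mean signal of 33.9 and a log2 fold change of 3.54 ± 0.42 (SE) by the authors' deposited table, or 11.6-fold (adjusted p = 2.28e-14). This is the site that holds the whole Fabp7 sequence printed above. Among the 999 listed sites over a promoter window of a protein-coding gene, the median called rise was 0.96, so the Fabp7 value stood far above it. The larger changes lay away from the gene.

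A site 40.4 kb beyond the Fabp7 end, chr10:57828568-57829068, had a log2 fold change of 6.29 ± 1.12 at a mean signal of 25.7 by the authors' deposited table, and ranked 17th from the top of all listed sites. Another, 34.2 kb beyond the end, stood at 5.41 ± 1.14 by the authors' deposited table. Both are nearer to Smpdl3a, a phosphodiesterase gene, than to Fabp7. Upstream, near Pkib, which encodes a protein kinase A inhibitor, an overlapping pair of sites 463 bp apart had 1.49 ± 0.60 and 5.02 ± 1.15 by the authors' deposited table, at almost equal mean signals of 9.91 and 10.02. Of the 2 uncalled sites, 1 lay 7.64 kb upstream with 1.81 ± 1.46 at a mean signal of 1.92, and the other lay inside Smpdl3a with -1.16 ± 0.82, by the authors' deposited table. The promoter site thus had the smallest standard error of the 7, and the distal rises had errors of over 1 log2 unit wherever they exceeded 5.

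Meis1 encodes a TALE-class homeodomain protein that binds DNA together with PBX and HOX proteins. Of its 16 sites 11 rose, 2 fell and 3 were not called, with a median of 2.43. The gene, chr11:18880428-19019651, runs along the minus strand over 139 kb, and its sites fell into separate stretches. Around the last part of the gene, 5 sites rose together. Inside it were values of 3.46 ± 1.08, 3.50 ± 0.91 and 2.59 ± 0.80 at 102, 133 and 135 kb from the start by the authors' deposited table. Just past the end, an overlapping pair had 1.73 ± 0.42 and 1.81 ± 0.33 by the authors' deposited table, the second at a mean signal of 31.4, the highest at Meis1. Uncalled sites followed at 147 and 197 kb from the start, with -0.30 ± 0.56 and -0.24 ± 0.74 by the authors' deposited table. Sites nearer the start ran the other way.

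A site inside Meis1, 61.4 kb from the start, fell by 3.45 ± 0.95 on the log2 scale by the authors' deposited table (adjusted p = 0.000605). The site nearest the promoter, 8.52 kb before the start, also fell, with -1.899 ± 0.96 by the authors' deposited table (adjusted p = 0.0365). That second call was lost when p-values were recomputed from the deposited fold changes and standard errors. Farther upstream, sites 93.4, 102 and 131 kb before the start rose, with 2.27 ± 0.88, 5.19 ± 1.19 and 4.26 ± 1.30 by the authors' deposited table. Between them and the gene lay a strong uncalled site, 55.4 kb before the start, with 0.05 ± 0.26 at a mean signal of 30.5 by the authors' deposited table.

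The highest values of the whole set came from the far side of Meis1. A pair of sites with midpoints 502 bp apart, at chr11:18580926-18581426 and chr11:18581428-18581928, about 299 kb beyond the end of the gene and between genes, had log2 fold changes of 7.13 ± 1.13 and 7.14 ± 1.13 by the authors' deposited table. Only 1 of the 9001 listed sites ranked above the pair, and Meis1 is the nearest protein-coding gene to it. A site closer in, 248 kb beyond the end, had 3.83 ± 0.78 by the authors' deposited table. The pair lies just within the 300 kb window, and the next site out, at 314 kb, had -0.60 ± 1.30 and was not called by the authors' deposited table. With Meis1 held to 50 kb like the other genes, 5 of its 8 sites rose and 2 fell.

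**Figure D3:**
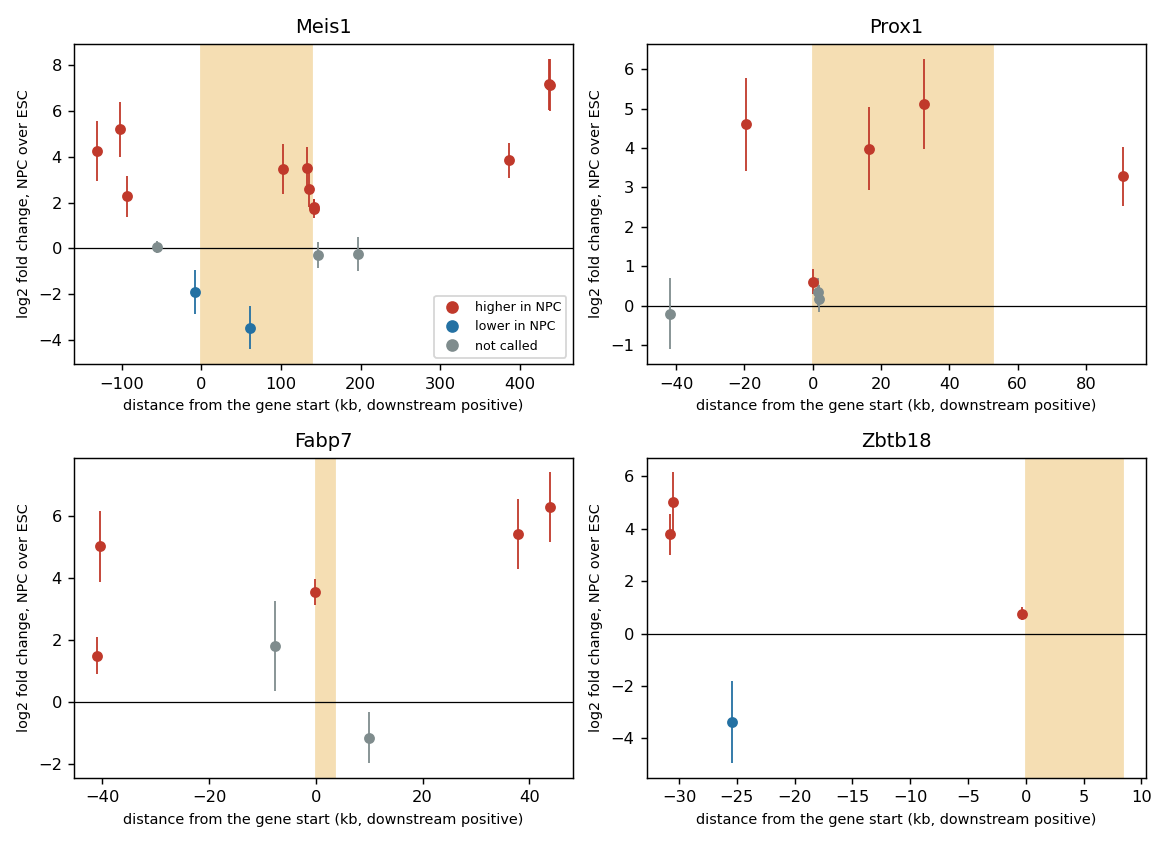
Log2 fold change of NPC over ESC (± SE) against distance from the gene start in kb at Meis1, Prox1, Fabp7 and Zbtb18, by the authors' deposited table, with the gene body shaded. Falls at Meis1 (blue) sit 8.52 kb before and 61.4 kb after the start, while the sites at the starts of Prox1 and Zbtb18 changed less than the called sites farther away.

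Pou3f3 (also known as Brn1) encodes a POU-domain factor of cortical progenitors and upper-layer neurons, and 3 of its 5 sites rose. None lay over its promoter, although the 250 bases before its start held 1 GC box. The leading site, chr1:42710996-42711496, lies 11036 bp past the end of the gene and had 3.01 ± 0.78 by the authors' deposited table, and one 3.70 kb past the end had 1.62 ± 0.53. Upstream, a pair of sites overlapping by 5 bp had 2.39 ± 0.67, called, and 0.95 ± 0.65, not called, by the authors' deposited table. Another, 13.6 kb past the end, was not called (-0.14 ± 0.44 by the authors' deposited table). Mean signals at Pou3f3 ran from 6.89 to 11.4, so its 5 sites were of similar strength.

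Prox1 encodes a homeodomain factor that acts in neural progenitors leaving the cell cycle and in the granule neurons of the hippocampus. Here 5 of 8 sites rose and none fell, and the changes split by position. The 3 sites in the first 2 kb of the gene had the highest mean signals, 17.5 to 28.5, and small changes. That over the start rose by 0.61 ± 0.32 on the log2 scale, a 1.53-fold change (adjusted p = 0.0485) by the authors' deposited table. The other 2, an overlapping pair, had 0.36 ± 0.35 and 0.19 ± 0.33 by the authors' deposited table and were not called. The first of these lies over an alternative RefSeq start of the gene.

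Away from the Prox1 start the rises were much larger. Inside the gene, 16.4 and 32.7 kb from the start (chr1:190154172-190154672 and chr1:190137901-190138401), sites had 3.98 ± 1.05 and 5.12 ± 1.15 by the authors' deposited table. Upstream by 19.6 kb stood 4.60 ± 1.17, and 38.0 kb beyond the end 3.28 ± 0.75, by the authors' deposited table. A weak site 41.8 kb upstream had -0.20 ± 0.90 at a mean signal of 2.49 by the authors' deposited table. The call at the start, unlike those at the 4 distal sites, was lost with recomputed p-values.

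Nr2e1 (also known as Tlx) encodes an orphan nuclear receptor that keeps neural stem cells self-renewing. It was the gene of the 8 without a rise. The site over its promoter, chr10:42583393-42583893, which holds the whole Nr2e1 sequence above, fell by 1.74 ± 0.75 on the log2 scale by the authors' deposited table (adjusted p = 0.0182). Its mean signal was only 5.97, where the Fabp7 promoter site had 33.9. The other 4 sites were not called. They had -0.81 ± 0.56 inside the gene and -0.53 ± 0.68, 0.01 ± 0.92 and 0.94 ± 0.84 at 8.24, 21.5 and 30.6 kb upstream by the authors' deposited table. The promoter call was kept with recomputed p-values and lost once fold changes were also centred on the median of all listed sites (-1.45).

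Hes6 encodes a helix-loop-helix protein that counteracts Hes1 and favours neuronal differentiation. At its start, with the G-rich sequence above, a site at chr1:91413999-91414499 with a mean signal of 20.01 rose by 1.53 ± 0.39 on the log2 scale, or 2.89-fold, by the authors' deposited table (adjusted p = 0.000278). A site 44.4 kb away, inside Erfe, which encodes a hormone of iron metabolism, fell by 2.00 ± 0.74 by the authors' deposited table. The remaining one, inside the circadian clock gene Per2, had -0.06 ± 0.50 by the authors' deposited table. Hes6 itself was thus the nearest gene of the rising site alone.

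Hey2 encodes a helix-loop-helix repressor downstream of Notch, and its promoter carried no listed site despite 3 GC boxes. The 3 strongest of its 5 sites were not called. They lay 21.2 to 29.5 kb beyond the end, within or next to Ncoa7, a nuclear receptor coactivator gene, with -0.18 ± 0.26, -0.12 ± 0.29 and 0.01 ± 0.27 by the authors' deposited table. The one at -0.12 overlaps an Ncoa7 promoter window. The 2 called sites were upstream and opposite in sign. At 40.8 kb, chr10:30883356-30883856, stood 3.62 ± 0.66 (adjusted p = 5.42e-07), and at 46.1 kb a weak site of mean signal 2.76 had -3.20 ± 1.37 (adjusted p = 0.0144), by the authors' deposited table. The call at the second was kept with recomputed p-values and lost once fold changes were also centred (-2.91).

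Zbtb18 (also known as RP58) encodes a zinc-finger repressor needed for the differentiation of cortical neurons. Its promoter, the most GC-rich of those printed, carried the strongest of the 53 sites, chr1:177441765-177442265, with a mean signal of 102, above 99.7% of listed sites. That site rose by 0.76 ± 0.23 on the log2 scale, or 1.70-fold, by the authors' deposited table (adjusted p = 0.00135). An overlapping pair about 30 kb upstream had 3.79 ± 0.78 and 5.01 ± 1.15 by the authors' deposited table. Between the pair and the promoter, 25.4 kb upstream, the weakest of the 53 sites fell by 3.38 ± 1.57 at a mean signal of 1.898 by the authors' deposited table (adjusted p = 0.0182), a call lost with recomputed p-values.

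By their medians, the sites over promoters had a higher signal and a smaller change than the member sites over none, but not at each of the 5 genes that have one. The 6 sites over a promoter window of their own gene, of which Prox1 has 2, had a median signal of 24.2 and a median log2 fold change of 0.69, and 4 of them rose and 1 fell. For all 999 listed promoter sites the medians were 22.5 and 0.27, with 27.6% rising and 12.8% falling. The 46 member sites over no promoter window had medians of 8.12 and 1.77, with 25 rises and 5 falls. Among all 8002 listed sites outside promoter windows the medians were 5.19 and -0.55, with 22.2% rising and 35.1% falling. At Nr2e1 the promoter site had the largest change of the 5 sites in size and a mean signal of 5.97, below the 9.09 of the site inside the gene. At Fabp7 the promoter site rose by 3.54 on the log2 scale by the authors' deposited table. These figures describe the sites and were not tested.

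The largest changes came with large standard errors. Of the 53 sites 8 exceeded a log2 fold change of 5 (15.1%, against 1.96% of all listed sites), with standard errors of 1.12 to 1.19. They were spread over Fabp7, Meis1, Prox1 and Zbtb18. Those at Meis1 lay over 50 kb from the gene, in the wider window given to it alone, and include the pair at that window's edge. At Meis1, 4 sites lay within 0.15 of the highest log2 fold change found among all listed sites of like signal, within 5% of their own. They sit at the upper edge of the table for their signal. Counts per cell type were not analysed here, so these sizes depend on the authors' fit and are not bounds. Of the 39 member sites at or above the median signal 26 rose (66.7%) and 3 fell (7.69%). All listed sites at or above the median split into 1299 rises (28.9%) and 1364 falls (30.3%). Of the 14 member sites below it 3 rose and 3 fell (21.4% each), against 16.7% rising and 34.9% falling of all listed sites below it.

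**Figure D4:**
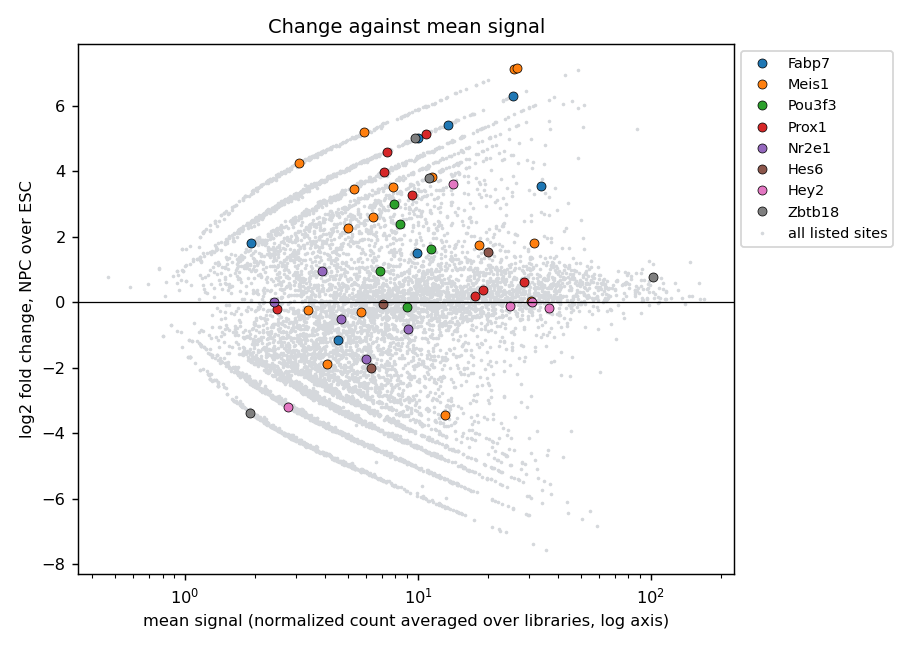
Log2 fold change of NPC over ESC against mean signal (normalized count averaged over libraries, log axis) for the 53 sites, coloured by gene, and for all 9001 listed sites in grey, by the authors' deposited table. The Meis1 pair at 7.13 and 7.14 lies on the upper edge of the grey cloud, and the Zbtb18 promoter site lies at the right with a mean signal of 102.

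Adjoining sites of a gene usually shared a call. There were 6 overlapping pairs and 1 pair, at Meis1, with 2 bp between its sites, and 6 of the 7 pairs shared a call. Overlapping sites share bases, so they are not separate observations. Just outside the 50 kb windows the calls were mixed. Rises stood 51.1 kb from Hey2 (3.02 ± 1.45), 65.8 kb from Pou3f3 (2.79 ± 1.06), 72.0 kb from Prox1 (2.65 ± 0.81), 67.4 kb from Hes6 (2.30 ± 1.08) and 60.0 kb from Nr2e1 (0.74 ± 0.27), and a fall 59.3 kb from Zbtb18 (-1.74 ± 0.72), by the authors' deposited table. The next site at Fabp7, 53.6 kb away, had 0.46 ± 0.74 by the authors' deposited table and was not called.

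Other genes of the same pathways had fewer rises than falls, as did all listed sites (22.8% rising and 32.6% falling). Of 47 Notch pathway genes listed, 6 had sites (Psen2, Ncstn, Dtx3, Dner, Tle2 and Tle5), and 9 of their 50 sites rose (18.0%), 16 fell (32.0%) and 25 were not called (median -0.20). Dner, a Notch ligand of neurons, had the largest rise, 4.29 ± 1.19 within its body, by the authors' deposited table. Among its 13 sites, however, 3 rose and 6 fell (median -1.23), with a fall of -4.70 ± 1.17 also inside the gene. The largest fall, -5.51 ± 1.14, stood 6.38 kb from Dtx3, a ubiquitin ligase gene of the pathway, by the authors' deposited table. That site lay nearer to another protein-coding gene, Arhgef25.

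Of 44 other progenitor factor genes, 5 had sites, and 20 of their 56 sites rose (35.7%) and 22 fell (39.3%, median -0.07). Both shares were above those of all listed sites (22.8% and 32.6%). Rfx4, a factor gene of the neural tube, had 5 rises and 4 falls among 14 sites, and the largest rise of the list, 5.98 ± 1.15 inside the gene, by the authors' deposited table. The largest falls were at Gli2, the hedgehog effector (-6.88 ± 1.13, 21.3 kb away), and inside Nhlh1, a helix-loop-helix gene of young neurons (-5.23 ± 1.19), by the authors' deposited table. The Nhlh1 site also lies 13.0 kb from Ncstn. It and most other sites of Nhlh1 were counted in both lists, so the lists are not independent. None of the 14 listed progenitor marker genes, such as Nes and Vim, lay in the covered regions.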

How the data were processed

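ATAC-seq libraries, 3 of NPC and 3 of ESC, are grouped by the cell type in the labels. The submitters' processing notes name mm10, BWA 2.1, Picard 2.23.8, MACS2 2.2.7, SAMtools 1.9 and DESeq2 without roles, and how the SP1 sites were chosen is not given in the sources used here. The mean signal (normalized count averaged over libraries), log2 fold change with its standard error, and p-values are the authors' deposited values per the file headers. P-values recomputed from fold change and standard error were never smaller than those deposited (9001 of 9001 sites, median ratio 2.35), and no source used here says whether fold changes were shrunk. The table does not say whether coordinates count from 0 or 1.

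From that table, sites were assigned to genes by midpoint, using RefSeq GRCm38.p6 gene bounds, and counted by sign at a deposited adjusted p below 0.05. Promoter windows run from 250 bases before to 50 bases after each RefSeq start of a protein-coding gene, and 1 bp of overlap sufficed. Exons, introns and UTRs were not analysed here. No model was fitted to libraries. Python 3.11.15, pandas 2.3.3, NumPy 2.4.6, SciPy 1.17.1 and matplotlib 3.10.9 were used, with recomputed p-values adjusted by Benjamini-Hochberg over the listed sites and tested on simulated data. The members, lists, motifs and rules were chosen with earlier results of these data known. Each member gene is named, and from each list up to 2 genes per direction, those with the largest called changes. The lists are Notch pathway genes, other progenitor factors, progenitor markers and pluripotency genes. Some genes that this rule names are not reported here.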

Additional observations from a re-analysis of the deposited data

How the results depend on the processing

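The 53 sites gave 29 rises, 6 falls and a median log2 fold change of 1.53. Under the alternatives that change the sites or the scale the median lay between 0.40 and 1.81, and those that change the calls alone cannot move it. The counts followed the window. With 10 kb for each gene 12 sites rose and 3 fell, with 100 kb 31 rose and 11 fell, and with 300 kb for each gene, as Meis1 alone has, 52 rose and 26 fell of 147 sites, with a median of 0.40. An adjusted p below 0.01 left 2 falls, and sites of at least median signal 3. Recomputed p-values alone gave 28 rises and 4 falls, or 87.5% rises among called sites in place of 82.9%, and 41.5% in place of 41.2% over all listed sites. With centring on the median of all listed sites added, 29 rose and 2 fell, and these shares were 93.5% and 50.4%. Leaving out each gene in turn gave 18 to 29 rises, 4 to 6 falls and medians of 0.94 to 1.77, the 18 rises being those without Meis1. Leaving out the Meis1 pair at the edge of its window, chosen after seeing the data, gave 27 rises and a median of 1.49.

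Of the single sites, centring turned the sign of 6 uncalled ones, to 0.04 at Meis1 (58.8 kb past its end), 0.15 at Pou3f3, 0.23 at Hes6, 0.16 and 0.10 at Hey2 and 0.09 at Prox1. Recomputed p-values alone lost 3 calls, the falls 8.52 kb upstream of the Meis1 start and at Zbtb18 and the rise at the Prox1 start. With centring added 4 falls were lost, the same ones at Meis1 and Zbtb18 and those at Nr2e1 and Hey2. No paired analysis was possible because the table holds no column per library, and for the same reason no replicate was left out.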
